A study of Mus musculus with 8 samples.

Results

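Glycosyltransferases are Golgi enzymes that hand 1 sugar at a time to the growing ends of glycans on proteins, mucins and lipids. The set described here holds 9 such genes, Abo, Fut1, Fut2, Fut8, B3gnt3, B4galt1, B4galt4, St3gal4 and St6gal1, of the 55276 genes in the deposited count table. The list was chosen by the measured High against Low difference of Abo, which was among the greatest in the table, so the levels of these 9 genes in High against Low are given as a description, with no test. All 9 were found in the table by symbol, and all 9 passed the filter on low counts that left 17344 genes.

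Esophageal epithelium was peeled from the muscle of C57BL6 mice aged 14 to 15 weeks and dissociated, and cells that excluded DAPI and carried integrin-b1 at the surface were sorted by Cyto-ID, a dye of autophagic vesicles. There were 4 animals, 2 female (Female1, Female2) and 2 male (Male1, Male2), and each gave 1 Cyto-ID Low and 1 Cyto-ID High library for bulk RNA-seq, so that each fraction had 4 replicates from separate animals. The labels name no transgene, deletion or drug treatment in any animal. Values by library are given below in the order Female1, Female2, Male1 and Male2. Libraries held 26285150 to 29301054 counts.

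The labels call both fractions basal cells. Basal keratinocyte markers summed to between 22032 and 26255 CPM (read counts scaled to a common library size) in the Low libraries and to between 2882 and 4577 in the High libraries, and 10 of 10 fell. Suprabasal markers summed to between 8822 and 26397 CPM in Low and to between 148114 and 249148 in High, and 10 of 10 rose. Itgb1 itself, the antigen of the sort, stood at 370 ± 31.6 CPM (SD, n = 4) in Low and at 68.2 ± 18.2 in High, and the differentiation keratin Krt13 at 7776 ± 2882 and 65729 ± 17542. The part of this shift in the values that follow was not tested, and in bulk RNA fewer cells of a type and less RNA per cell cannot be told apart. Libraries also stood apart. Gastric epithelium markers summed to 19.8 CPM in Low and 117 in High of Female2, against 0.664 to 1.39 across the other 6 libraries, and fibroblast markers to 38.4 CPM in High of Male2 against 149 to 463 in the other High libraries.

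The enzymes act in sequence. B3gnt3 and the galactosyltransferases B4galt1 and B4galt4 lengthen chains of alternating N-acetylglucosamine and galactose. Fut1 or Fut2 may then put fucose on the outermost galactose, which makes the H antigen, and Abo adds the final sugar of the A and B blood groups to H. The sialyltransferases St3gal4 and St6gal1 cap the same galactose with sialic acid in place of fucose, while Fut8 fucosylates the core of N-glycans, far from the chain end. In stratified epithelia, A, B and H antigens are known to appear as cells leave the basal layer.

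Promoters of 3 members are shown as one example each of an H enzyme, a chain builder and a capping sialyltransferase, so that each kind of chain-end enzyme in the RefSeq windows is seen. Each is 250 bases before to 50 bases after a RefSeq start site (GRCm38.p6), read 5′ to 3′ along the gene's strand. Capitals mark the GC box GGGCGG or its reverse complement. The Fut1 window lies at chr7:45617356-45617655 on the plus strand, that of B4galt1 at chr4:40853935-40854234 on the minus strand, and that of St3gal4 at chr9:35116815-35117114 on the minus strand.
Fut1: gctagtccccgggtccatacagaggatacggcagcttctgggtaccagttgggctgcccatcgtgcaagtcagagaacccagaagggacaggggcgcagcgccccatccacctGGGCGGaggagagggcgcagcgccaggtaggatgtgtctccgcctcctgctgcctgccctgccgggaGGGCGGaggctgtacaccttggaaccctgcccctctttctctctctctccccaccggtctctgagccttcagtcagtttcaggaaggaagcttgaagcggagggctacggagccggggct
B4galt1: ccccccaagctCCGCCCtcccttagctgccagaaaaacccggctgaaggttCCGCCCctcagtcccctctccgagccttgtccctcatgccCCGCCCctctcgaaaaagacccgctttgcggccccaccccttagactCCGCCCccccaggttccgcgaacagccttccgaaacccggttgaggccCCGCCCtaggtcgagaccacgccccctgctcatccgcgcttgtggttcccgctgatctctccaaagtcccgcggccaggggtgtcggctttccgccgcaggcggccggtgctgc
St3gal4: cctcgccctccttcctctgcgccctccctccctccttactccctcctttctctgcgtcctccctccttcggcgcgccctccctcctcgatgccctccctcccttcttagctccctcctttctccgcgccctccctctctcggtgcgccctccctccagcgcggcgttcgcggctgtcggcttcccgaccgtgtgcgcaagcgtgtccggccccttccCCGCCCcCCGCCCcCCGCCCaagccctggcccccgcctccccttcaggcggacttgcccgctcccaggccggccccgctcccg

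The Fut1 window held 2 GC boxes and 64.7% G or C, that of B4galt1 held 5 and 68.3%, and that of St3gal4 held 3 and 74%. Of 32851 mouse promoters of the same length, 35.7% held at least 1 GC box, and their median G and C content was 52.7%. On both strands, the windows of these 3 genes held no E-box CACGTG (present in 7.15% of all promoters), no AP-1 site TGANTCA (7.81%), no Grainyhead site AACCNGTT (2.09%) and no TATAAA (13.6%). The motifs do not overlap each other in these windows. RefSeq windows matched 7 of the 9 members, those of Fut8, B3gnt3, B4galt4 and St6gal1 included. Each of the 7 had a window with at least 1 GC box, a count by gene, whereas the 35.7% is a share of windows. Fut8 and St6gal1 had several windows, and windows 3 and 4 of Fut8 and 2 and 3 of St6gal1 held no GC box. Window 3 of St6gal1 held 1 AP-1 site. No window was matched for Abo and Fut2. The matches describe the letters alone.

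Fut1, Fut2 and Abo, the H enzymes and the enzyme that uses H, were all higher in Cyto-ID High, in 4 of 4 animals, and their fractions did not overlap. Fut8, B3gnt3, B4galt1 and St3gal4 were lower without overlap, and the fractions of B4galt4 and St6gal1 overlapped. That made 7 of 9 members without overlap, beside 48.6% of all 17344 genes (23.6% higher in High and 24.9% lower). By edgeR's adjusted p under 0.05, which called 23.4% of all genes higher and 25.3% lower, 48.7% in all, the same 3 members would count as higher and the same 4 as lower. With the animal as a block, or with total counts alone, B4galt4 would make it 8. Scaling by total counts alone moved the share of higher calls among all calls from 48% to 20.5% and the median of all genes from -0.09 to -0.64 (log2). Since the choice of members used this contrast, nothing is read from these counts.

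Abo is the glycosyltransferase of the A and B antigens, and the mouse enzyme can transfer either sugar. Its level in Cyto-ID Low was 0.896, 2.17, 0.155 and 2.45 CPM, from 5 to 81 counts. In Cyto-ID High it was 19.8, 43.4, 26.6 and 34 CPM, from 513 to 997 counts. The lowest High library thus lay well above the highest Low library. The fitted log2 difference was 4.44 (SE 0.60), a 21.7-fold excess. By animal, on log2 CPM with a prior count of 2, it ran from 3.76 in Male2 to 6.89 in Male1, where the Low library had only 5 counts. Suprabasal markers in Low summed to 13084, 20059, 8822 and 26397 CPM, which ranks the libraries as Abo in Low does. In High they summed to 148114, 191294, 148241 and 249148, with Male2 highest, where Abo was highest in Female2. Their part in Abo was not tested. Female2 was highest for Abo in High and also highest for gastric markers in both fractions, and without both of its libraries the Abo difference was 4.51. Without both libraries of Male2 it was 5.02.

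Fut2, the H enzyme of secretory and surface epithelia that sets secretor status in humans, was the most abundant of the 3 in reads. In Low it stood at 7.44, 8.91, 3.85 and 9.99 CPM, and in High at 71.4, 93.5, 88 and 90.9. The High libraries lay within a narrow band, whereas Male1 was low among the Low libraries, as it was for Abo. The log2 difference was 3.51 (SE 0.28), an 11.4-fold excess.

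Fut1, the H enzyme best known from human red cells and vessels, had the smallest and the tightest excess of the 3. It stood in Low at 3.64, 4.65, 3.6 and 3.47 CPM, and in High at 15.3, 21.2, 20.2 and 20.9. Female1 was the lowest High library, as it was for Abo and Fut2. The log2 difference was 2.34 (SE 0.18), with 2.05 to 2.57 by animal, which was smaller than the 3.18 to 4.49 of Fut2 in every animal.

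**Figure D1:**
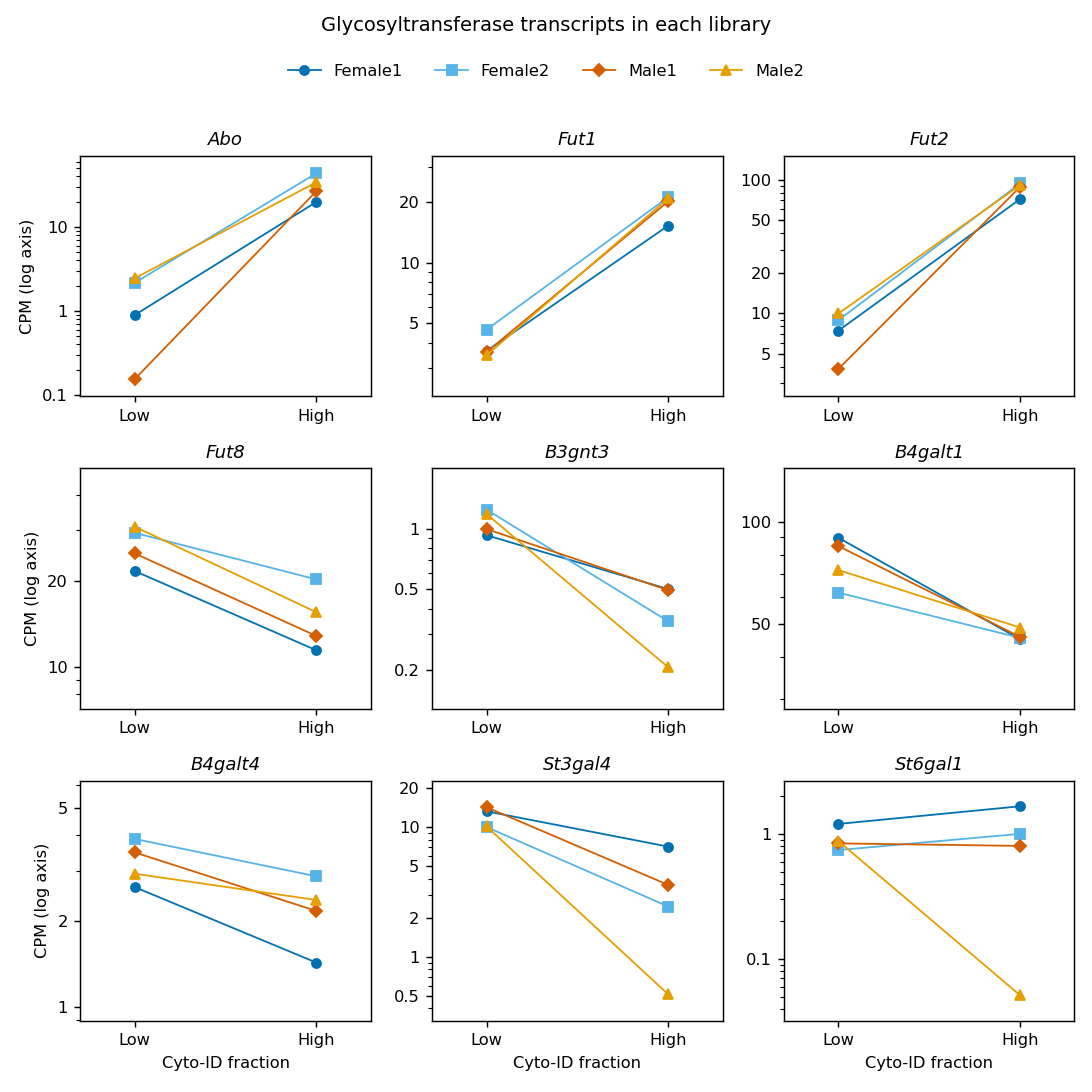
Level of each of the 9 genes in TMM-scaled CPM (vertical axis, log, a range of its own in each panel) in Cyto-ID Low and High, with a line joining the 2 libraries of an animal. Abo, Fut1 and Fut2 climb in 4 of 4 animals, 7 of the 9 panels show no overlap between fractions, and the St6gal1 and St3gal4 points of Male2 in High lie far below the rest.

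The chain builders were lower in High or overlapped. B4galt1, the main galactosyltransferase of N-acetyllactosamine chains, had 89.6, 61.8, 84.7 and 72 CPM in Low, and 45.1, 45.5, 45.8 and 48.8 in High. The Low libraries spread over 12.6 CPM (SD) and the High libraries over 1.7, and no High library reached the lowest Low one. The log2 difference was -0.73 (SE 0.15), a level 1.66 times higher in Low. B4galt4, a related enzyme known for sulfated acceptors, had 2.63, 3.88, 3.48 and 2.93 CPM in Low and 1.43, 2.87, 2.17 and 2.37 in High. Its fractions overlapped, although each animal was lower in High, and the log2 difference was -0.55 (SE 0.28). B3gnt3, which extends core O-glycans and chains with N-acetylglucosamine, was close to the limit of detection. It had 30 to 45 counts in Low (1.08 ± 0.147 CPM) and 4 to 13 in High (0.388 ± 0.141), without overlap, and a log2 difference of -1.46 (SE 0.37).

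Fut8, the single mammalian enzyme of core fucosylation, ran against the other 2 fucosyltransferases of the set. It stood in Low at 21.6, 29.4, 24.9 and 30.9 CPM, and in High at 11.4, 20.2, 12.8 and 15.5. Female2 was the highest library in High, just under Male2 in Low, and Female1 was the lowest in both fractions. The log2 difference was -0.83 (SE 0.21) and the level was 1.78 times higher in Low.

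Both sialyltransferases were uneven across animals. The animals' log2 differences had an SD of 1.35 for St3gal4 and 1.63 for St6gal1, beside 1.4 for Abo. St3gal4, which caps galactose on N-acetyllactosamine chains and helps build sialyl Lewis structures, had 13.2, 9.98, 14.2 and 10.1 CPM in Low. In High it had 7.06, 2.44, 3.58 and 0.514 CPM, the last from 10 counts. All High libraries lay under all Low libraries, with a log2 difference of -1.88 (SE 0.53) and a range by animal from -4.13 in Male2 to -0.9 in Female1. St6gal1, which makes the sialic acid linkage recognised by CD22 and by elderberry lectin, showed no common direction. It had 1.2, 0.742, 0.839 and 0.875 CPM in Low and 1.66, 1, 0.801 and 0.0514 in High, the last from 1 count. It was higher in High in 2 animals and lower in 2, and its log2 difference of -0.19 (SE 0.58) became 0.34 without both libraries of Male2. The High library of Male2 was also the lowest of the 4 for fibroblast, leukocyte, endothelial, muscle and blood markers (leukocyte sum 25.2 CPM against 40.4 to 99.6), and the part of those cells in the sialyltransferase values was not tested. Without both libraries of Male2 the St3gal4 difference was -1.46. Without both of Female2 it was -1.92, and St3gal4 and B3gnt3 then left the count of members called, which became 5. St3gal4 also left it without the Low library of Male1, at -1.66.

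**Figure D2:**
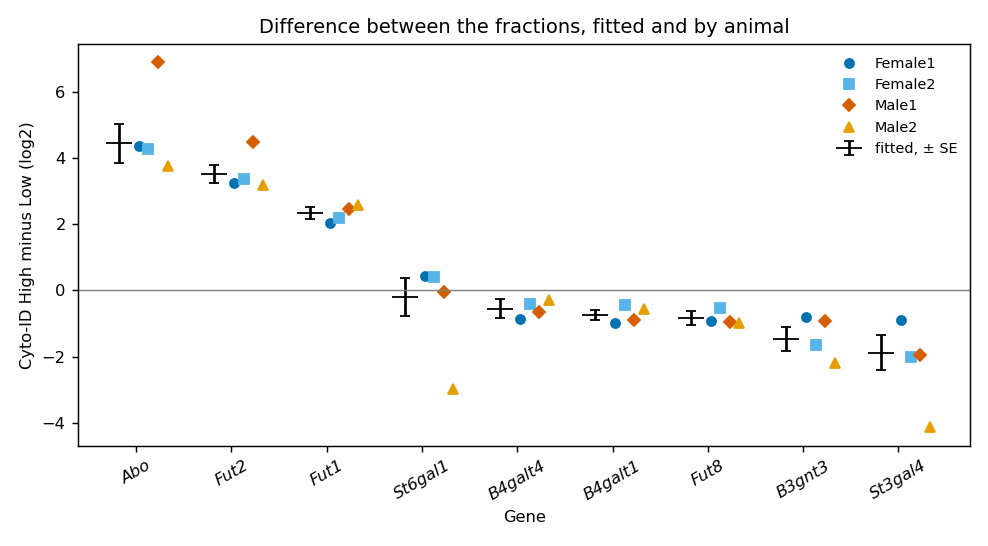
Cyto-ID High minus Low on the log2 scale (vertical axis) for each gene (horizontal axis): horizontal ticks with bars give the fitted difference ± SE, and points give each animal's own difference of log2 CPM. Abo, Fut2 and Fut1 lie above 0 in 4 of 4 animals, 5 genes lie below 0 in 4 of 4, and St6gal1 straddles 0 with Male2 at -2.96.

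Levels between genes are compared as CPM per kilobase of merged exons in GENCODE M21 (GRCm38). In Low, B4galt1 led with 18.2 ± 2.97 CPM per kilobase (SD, n = 4), above St3gal4 at 4.07 ± 0.732 and Fut8 at 3.38 ± 0.54, and these last 2 overlapped. Fut2 at 1.39 ± 0.493, Fut1 at 1.38 ± 0.194, B4galt4 at 1 ± 0.174 and Abo at 0.738 ± 0.562 followed. Of these Fut1 lay above B4galt4 in all libraries, while Fut2 and Abo overlapped both. B3gnt3 at 0.355 ± 0.0482 overlapped Abo, and St6gal1 at 0.186 ± 0.0409 lay below B3gnt3. In High the order was led by Abo at 16.1 ± 5.27 and Fut2 at 15.8 ± 1.83, which overlapped. B4galt1 at 10.9 ± 0.401 lay below every Fut2 library but inside the range of Abo, whose lowest library had 10.3. Fut1 came next at 6.97 ± 1, above Fut8 at 1.89 ± 0.488 and St3gal4 at 1.16 ± 0.941. B4galt4 had 0.688 ± 0.187, St6gal1 0.179 ± 0.135 and B3gnt3 0.127 ± 0.046. Fut8, St3gal4 and B4galt4 could not all be ordered, since the range of St3gal4 overlapped both of the others, and St6gal1 and B3gnt3 overlapped too.

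The per-length ratios put the same facts within a library, where the scaling of libraries cancels. Fut2 over Fut1 was 1.05, 0.983, 0.548 and 1.48 in Low, and 2.4, 2.26, 2.23 and 2.23 in High. The 2 H enzymes were thus near par in Low on average, with animals on either side, and stood in nearly one ratio in all High libraries. Abo over Fut2 was 0.459 ± 0.283 in Low and 1 ± 0.237 in High. Fut2 over B4galt1, an end fucosyltransferase over a chain builder, was 0.0802 ± 0.0368 in Low and 1.45 ± 0.156 in High, and Fut2 over Fut8 0.41 ± 0.125 and 8.6 ± 1.38. B4galt1 over B4galt4 stayed close, at 18.8 ± 5.64 and 16.9 ± 5.06. St3gal4 over St6gal1 was 22.3 ± 4.46 in Low and 8.9 ± 5.5 in High, where Male2 rests on the single count of St6gal1.

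**Figure D3:**
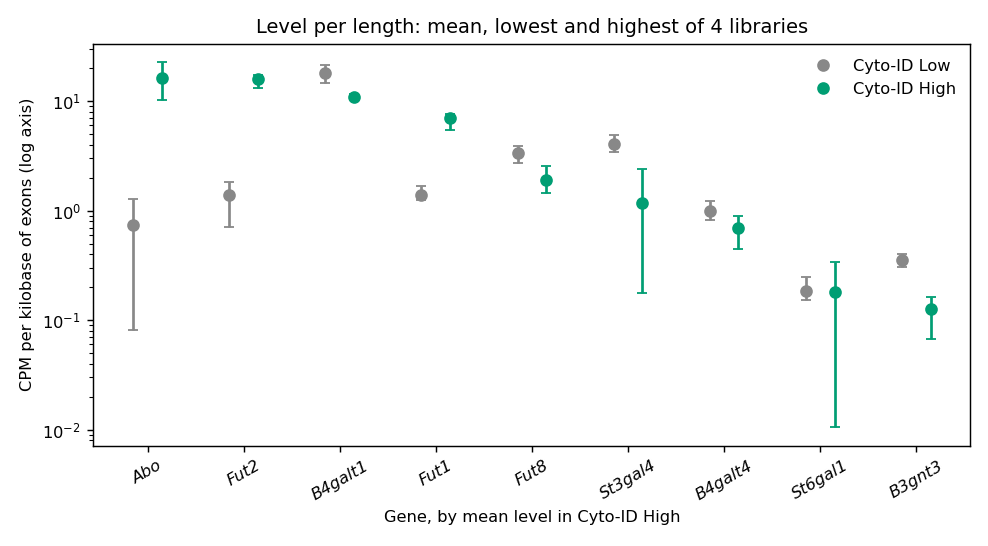
CPM per kilobase of exons (vertical axis, log) for the 9 genes, ordered by their mean in High. Dots are means and bars run from the lowest to the highest of 4 libraries: B4galt1 leads in Low at 18.2, and Abo at 16.1 and Fut2 at 15.8 lead in High.

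The positions are from the GRCm38 annotation. Abo (chr2:26842503-26864979, minus strand) has 7 merged exons. Fut1 (chr7:45617289-45621059, plus strand) and Fut2 (chr7:45648591-45666394, minus strand) lie in one cluster, with Izumo1, Rasip1 and Mamstr among the genes between them. Within 50000 bases of the Fut1 and Fut2 pair, Rasip1 (log2 fold change 0.95), Sphk2 (1.28) and Car11 (0.74) also rose, Mamstr (-1.82) fell, and Hsd17b14, Bcat2, Izumo1, A030001D20Rik, Dbp and Rpl18 did not pass edgeR's test. Sec1, a close relative of Fut2 in this cluster, had 0 to 2 counts in Low and 1 to 5 in High and was not tested. Around Abo, Surf6 (1.12) and Med22 (0.77) rose, and Rpl7a and Surf1 did not pass. The changes of the tested neighbours were smaller in size than the differences of Abo, Fut1 and Fut2. Rasip1 overlaps Izumo1 and A030001D20Rik by position, and Sphk2 overlaps Dbp and Rpl18, so their counts are uncertain without strand. Fut8 lies at chr12:77238125-77476338, B3gnt3 at chr8:71690756-71701789, B4galt1 at chr4:40804602-40854005, B4galt4 at chr16:38742264-38769049, St3gal4 at chr9:35046576-35119268 and St6gal1 at chr16:23224740-23360350.

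Some reads could have been counted for another gene. Stretches of 50 bases shared with other genes made up 2.9% of Fut2 (all with Sec1), 4.08% of Fut8, 0.532% of B3gnt3, 9.81% of St3gal4 and 3.13% of St6gal1, and 0 of Abo, Fut1, B4galt1 and B4galt4. Exons of St3gal4 overlap 4930581F22Rik by 412 bases, those of St6gal1 overlap BC106179 by 200 and those of Fut8 overlap 9530018F02Rik by 75, each on the opposite strand. Whether the counting used strand is not given in the sources used here, so the values of these 3 genes are uncertain to that extent.

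The genes with the profile nearest to each member were found by the root mean square difference of log2 CPM, centred per gene, over the 8 libraries, among 10007 genes with a mean of at least 5 CPM. Nearest to Abo were Dsc1 (0.19) and Dsg1a (0.25), desmosomal cadherins of suprabasal keratinocytes, with Ptger3 (0.24), Defb4 (0.26) and P2ry4 (0.27). Dsc1 itself went from 60.5 ± 49.5 CPM in Low to 1235 ± 239 in High. Nearest to Fut2 were Lipm (0.10), Spink5 (0.12), Nav2 (0.14), Mboat2 (0.15) and Sdr9c7 (0.15), of which Spink5 encodes the epidermal protease inhibitor LEKTI. Nearest to Fut1 were Dhcr7 (0.12), Rdh12 (0.14), Mpzl2 (0.16), Kcnk6 (0.17) and Fer (0.17). Fut8 was nearest to Slc35g1, Gnai1, Stradb, Armc10 and Klhdc2, and B4galt1 to Zfp84, Ddhd1, Nasp, Celf1 and Zfp868. B4galt4 was nearest to Wrn, Steap2, Fra10ac1, Cox15 and Pik3r4, and B3gnt3 to Ikbip, Dzip3, Sgcb, Gusb and Rnase4. St3gal4 had no neighbour closer than 0.31, and its list held Mad2l1 and Cdk1 of mitosis beside Spon1, Parpbp and Col18a1. For St6gal1 the near genes reported are Mir100hg (0.32), Mal (0.34), Psca (0.35) and Cxcl2 (0.38). The points share libraries and depth, so likeness over 8 libraries is a description.

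Sex was a contrast that the choice of members had not used. The difference between High and Low was 4.43 (SE 0.52) in females and 4.48 (SE 1.06) in males for Abo, 3.41 (SE 0.30) and 3.65 (SE 0.50) for Fut2, and 2.22 (SE 0.33) and 2.51 (SE 0.20) for Fut1. In the interaction of sex and fraction, the male minus female gap was 0.18 (SE 1.19) for Abo, 0.36 (SE 0.54) for Fut2 and 0.40 (SE 0.35) for Fut1. The widest gaps were those of St3gal4, at -1.21 (SE 0.46) and -2.52 (SE 0.86), and St6gal1, at 0.53 (SE 0.57) and -0.94 (SE 1.09). By animal St3gal4 was -0.9 and -2.0 in the females, -1.96 in Male1 and -4.13 in Male2. St6gal1 was 0.44 and 0.4 in the females, -0.06 in Male1 and -2.96 in Male2. Both male values thus lean on the High library of Male2, with 10 counts of St3gal4 and 1 of St6gal1. The interaction was -1.25 (SE 1.02) for St3gal4 and -1.40 (SE 1.18) for St6gal1, and edgeR gave an adjusted p of 1 for each of the 9 members. Of the 17344 genes tested 0 (0%) passed that test in edgeR, with 19 at an unadjusted p under 0.05, and in simulated data the test recovered 0% of interactions of 1.5 and 71.5% of interactions of 3 on the log2 scale. That model and its simulation leave out which animal a library came from. With the animal as a block 0 genes passed and 38 had an unadjusted p under 0.05, none of them a member. The interaction was then 0.41 (SE 0.26) for Fut1, 0.58 (SE 0.92) for Abo, -1.44 (SE 0.76) for St3gal4 and -1.83 (SE 1.19) for St6gal1, and edgeR's adjusted p was again 1 for each of the 9 members. By animal the Fut1 difference was 2.05 and 2.18 in the females and 2.47 and 2.57 in the males.

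For male against female animals the Low and High counts of each animal were added, giving 2 against 2, and 4 of 19687 genes (0.0203%) passed. None of the 9 members did, and edgeR's adjusted p was 1 for each (unadjusted p of 0.143 or more, the lowest for St6gal1). Abo had 542 and 1076 counts in the females and 702 and 741 in the males, a male minus female log2 difference of -0.10 (SE 0.31). Fut2 had 2092 and 2472 against 2432 and 2098, with 0.04 (SE 0.18). St6gal1 had 82 and 50 against 48 and 30, with -0.72 (SE 0.45). The females lay on both sides of the males for Abo, and both lay above the males for St6gal1.

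The other glycosylation genes, 133 in 9 lists, give the surroundings of the set. Of the 100 that were tested, 20 rose, 26 fell and 54 did not pass edgeR's test, close to the 23.4% higher and 25.3% lower of all genes, with a median log2 fold change of -0.24 against -0.09 over all genes tested. With scaling by total counts alone 14 rose and 49 fell. Of Abo's own family both tested genes fell, Ggta1, the enzyme of the alpha-gal epitope, by 2.22 on the log2 scale (SE 0.16, from 104 ± 18.9 to 22.3 ± 1.91 CPM) and A3galt2 by 1.72. Of 5 other fucosyltransferases tested, 3 fell, Fut10 (-3.10), Fut11 (-1.40) and Pofut2 (-0.78), and none rose. A3galt2 had only 4 to 8 counts in High and Fut10 3 to 10, so both were close to the limit of detection there.

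Sialyltransferases other than the 2 members also fell where they passed, 4 of 11 and none in the other direction, beside 25.3% lower and 23.4% higher over all genes. St6galnac2, which adds sialic acid to O-glycans, fell by 4.02 (SE 0.34, from 89.4 ± 21.1 to 5.67 ± 3.06 CPM), and St3gal2 by 2.87, St3gal3 by 2.09 and St3gal1 by 1.08. Of 5 tested relatives of B3gnt3 and the I-branching enzyme Gcnt2, 3 fell, B3gnt9 (-1.14), B3gnt8 (-1.07) and Gcnt2 (-0.76), 1 rose, B3gntl1 (0.47, but -0.10 with total counts alone), and 1 did not pass. Of 14 other galactosyltransferases and N-acetylgalactosaminyltransferases tested, 9 did not pass. In that list B4galnt3 (2.20), B4galt7 of the proteoglycan linker (1.11) and B3galt4 of gangliosides (1.03) rose, and B3galnt2 of dystroglycan (-1.27) and B4galt2 (-1.12) fell. Gcnt2 in Female2 went the other way (58.9 CPM in Low, 74.6 in High), and its call was lost when any library but the Low one of Female2 was left out. B3gntl1 and B3gnt9 also lost their calls when some single libraries were left out, and B3galt4, C1galt1c1 and Mgat5b with total counts alone.

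The carriers and donors of the same sugars changed in both directions. Among genes that start and extend mucin-type O-glycans 5 of 17 rose, with Galnt10 (1.88), Galnt12 (1.47) and C1galt1c1 (0.68) among them, and Galnt18 (-1.56) fell. A4gnt of gastric gland mucins rose by 4.22 (SE 0.77) from 0 to 7 counts in Low to 14 to 61 in High, and its highest library in each fraction was that of Female2, which also led in gastric markers, whose part was not tested. In N-glycan branching 1 of 12 rose, Mgat5b (1.09), and 4 fell, with Man2a2 (-2.84), Mgat3 (-1.91) and Mgat4b (-1.03) beside Mgat5 (-0.43). Of the genes that supply fucose to Fut1, Fut2 and Fut8, the GDP-fucose transporter Slc35c1 rose (1.03), Gmds (-1.67) and the salvage kinase Fcsk (-2.89) fell, and Tsta3 (-0.05) and Fpgt (0.05) did not pass. Of those for sialic acid, Cmas (1.79) and Nans (1.47) rose, and Gne (-0.89) and the CMP-sialic acid transporter Slc35a1 (-1.92) fell. Galt (-1.86), which turns galactose phosphate into the donor used by the galactosyltransferases, fell. Of 9 membrane mucins and galectins tested 4 rose and none fell, beside 23.4% and 25.3% over all genes: Muc15 (3.89, from 10.7 ± 6.03 to 158 ± 41.2 CPM), Lgals12 (1.70), Lgals3 (1.54) and Lgals7 (1.01). A3galt2, St3gal1, A4gnt, Mgat5, Gmds, Slc35c1, Tsta3, Fpgt, Gne and Lgals7 fell outside the naming rule and were chosen after their values were seen.

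**Figure D4:**
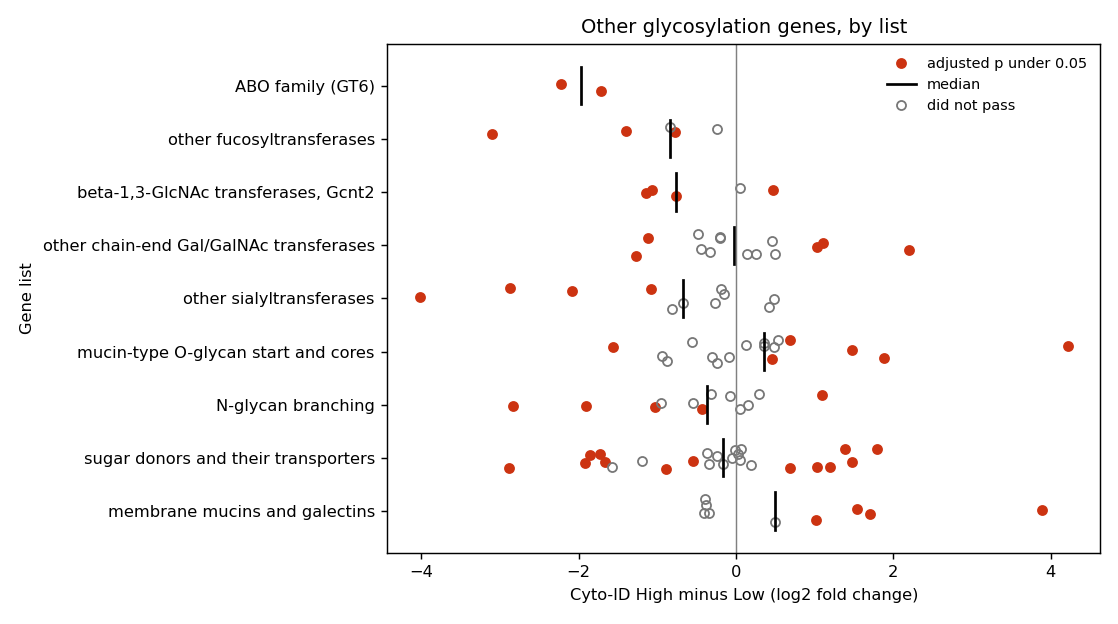
High minus Low log2 fold change (horizontal axis) of every tested gene in the 9 lists (vertical axis), filled where edgeR's adjusted p was under 0.05 and open where not, with the median of each list as a bar. The ABO family and the other fucosyltransferases lie to the left of 0 with medians of -1.97 and -0.84, while membrane mucins and galectins have a median of 0.50.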

How the data were processed

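The authors deposited 1 table of raw read counts per gene symbol for the 8 libraries. The submitters' processing notes name GRCm38, STAR 2.7.3 and DESeq2 with no role, and the counting tool, the annotation and the strandedness are not given in the sources used here. The lowest chi-square per degree of freedom between libraries of one fraction was 19.8, so no library was taken as a copy of another.

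With edgeR 4.0.16 (R 4.3.3), genes were filtered by filterByExpr on the fraction, libraries were scaled by TMM, and glmQLFit and glmQLFTest compared High with Low with sex in the model. P-values were two-sided and adjusted by Benjamini-Hochberg over the 17344 genes tested (threshold 0.05). CPM are TMM-scaled, log2 CPM use a prior count of 2, and each SE is the fold change over the root of F. Spreads are over animals.

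The members and all gene and marker lists were chosen with earlier results of these data known. Named were the members, up to 3 called genes of a list at either end of the log2 fold changes (mean of 1 CPM or more), and for each member the 5 nearest profiles (mean of 5 CPM or more, no Gm-number or Rik names). Some genes that met this rule are not reported here. Of 33 list genes so named, 14 have exons that overlap another gene and are uncertain without strand (Pofut2, B3gntl1, B3gnt9, B3gnt8, Gcnt2, B4galnt3, B4galt7, B3galnt2, B4galt2, Man2a2, Nans, Slc35a1, Galt and Muc15), and Fcsk and St6galnac2 were not looked up.

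The 2 libraries of an animal are paired by its name. Across genes, which are not independent, the correlation of their deviations from the fraction means was 0.433, 0.316, -0.0161 and 0.277 (Female1, Female2, Male1, Male2), and -0.372 to 0.35 between animals. Alternatives were RLE size factors, total counts, no filter, at least 10 counts in every library, no covariate, the animal as replicate block, limma-voom (limma 3.58.1), DESeq2 1.42.0 and each library left out; for sex, each fraction alone. Leaving out both libraries of Female2 or Male2 was added after the data were seen. Tested on simulated data with 200 genes changed by 1.5 (log2), the High against Low fit called 69.5% of them and 7 others of 17198.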

Additional observations from a re-analysis of the deposited data

Results flagged for a closer look

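In each of 111 groups of 4 values (a gene's libraries in one fraction, the animals' differences, or a marker sum), the library farthest from its neighbour was examined by Dixon's criterion, which chance meets in about 1 of 20 groups, and 12 stood apart. Among the members these were Fut1 in Low at 4.65 CPM in Female2, above 3.47 to 3.64, and Fut1 in High at 15.3 CPM in Female1, below 20.2 to 21.2. The High minus Low difference of Fut2 was 4.49 in Male1 against 3.18 to 3.38 in the others, that of Fut8 was -0.54 in Female2 against -0.99 to -0.91, and that of St6gal1 was -2.96 in Male2 against -0.06 to 0.44.

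Among related genes, St6galnac2 in High stood at 10.2 CPM in Male2 against 3.77 to 4.57, and Lgals3 in High at 1118 CPM in Male2 against 754 to 780. In Low, Female1 was lowest for St3gal3 at 5.71 CPM, Galnt18 at 55.4 and Galt at 8.12. Gastric epithelium markers summed to 19.8 CPM in Low and 117 in High of Female2.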

How the results depend on the processing

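Scaling by total counts alone shifted the median of all genes from -0.09 to -0.64 and the share of calls in the higher direction from 48% to 20.5%. Under it Fut1 was 1.76, Fut8 -1.42, B4galt1 -1.29 and B4galt4 -1.13 (8 members called), other glycosylation genes called lower went from 26 to 49, and B3gntl1 was -0.10 and no longer higher. Otherwise the members other than St6gal1 kept their sign under every alternative run, single libraries left out included, with Abo at 3.84 to 5.08, Fut2 at 2.94 to 3.78 and St3gal4 at -2.41 to -1.46. St6gal1 changed sign only without Male2, at 0.25 without its High library and 0.34 without both. With the animal as a replicate block 9336 genes were called against 8440, with 8 members, and 21 listed genes higher and 31 lower against 20 and 26; B4galt4 was the member gained. Requiring at least 10 counts in every library gave no value for Abo, B3gnt3 and St6gal1. Leaving out 1 library moved the count of genes called to between 7269 and 8106, the members called to between 6 and 7 (St3gal4 was lost without the Low library of Male1) and Fut8 to between -1.05 and -0.71, the first without the High library of Female2. The cause was not tested. The male against female count was 4 on animal sums, 0 in High alone and 1 in Low alone, with fewer libraries. Of 33 named list genes, 27 kept their call in every alternative that gave a value; Gcnt2, B3gntl1, B3gnt9, B3galt4, C1galt1c1 and Mgat5b did not. Among the members, depth limits B3gnt3 and St6gal1, at 45 counts or fewer in any library.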
